A study of Mus musculus with 8 samples.

Results

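The genes described here are the 31 that carry out or control cholesterol synthesis, release from lysosomes and storage in the liver. They were chosen by gene symbol, and all 31 were found among the 16540 symbols of the liver count table. The roles were distinguished along the pathway as 8 genes of the mevalonate and prenyl steps, 11 of the squalene and post-squalene steps, 4 of lysosomal release and transport, 2 of ester storage and 6 of sterol sensing. The livers came from male Apoe-/- mice on a Western diet that were given vehicle or isoginkgetin (ISOGK), a biflavonoid from Ginkgo biloba, at 20 mg/kg/day for 8 weeks, with 4 mice in each group. ISOGK was injected intraperitoneally, and the study follows it as a lipid-lowering compound that inhibits ATP citrate lyase, which supplies acetyl-CoA for this pathway. By the labels both groups lack apolipoprotein E, a loss that raises plasma cholesterol, and no wild-type livers were compared here. The labels name the diet as Western, while the study's methods describe a high cholesterol diet that was begun before the treatment. The ages of the mice are not given in the sources used here.

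Cells make cholesterol from acetyl-CoA in a long chain of enzymes that passes through mevalonate, isoprenoids and squalene. The chain is governed by SREBP2, a transcription factor held in the endoplasmic reticulum by SCAP and the INSIG proteins while sterols are plentiful. When sterols run low, SCAP carries SREBP2 to the Golgi, where it is cut, and the released part enters the nucleus and raises transcription of most genes of the chain. In a mouse on a high-cholesterol diet, the cholesterol that reaches the liver is known to hold this system down.

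In ISOGK-treated mice, 7 of the 31 genes had lower transcript levels and 2 had higher levels. The genes that fell were Acat2, Idi1 and Fdps of the mevalonate and prenyl steps, Cyp51 and Nsdhl of the post-squalene steps, the sterol carrier Stard4 and the sterol sensor Insig1. The genes that rose were Insig2, the partner of Insig1, by 1.48 on the log2 scale, and the post-squalene enzyme Hsd17b7 by 0.90. A gene is said here to have fallen or risen when its adjusted p was under 0.05 in edgeR's quasi-likelihood test with Benjamini-Hochberg adjustment over all 12307 genes tested, and all 31 genes were among those tested. Of all genes tested, 3.44% were lower and 4.11% were higher by the same rule, against 22.6% and 6.45% of the 31 genes. With scaling by library size alone these shares were 6.53% lower and 2.13% higher for all genes, and 10 of the 31 genes (32.3%) were lower and 2 higher. Levels are given as CPM, read counts scaled to library size with TMM factors. In bulk tissue, fewer cells of a type and less RNA per cell cannot be told apart.

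The remaining 22 genes did not pass the test. Of them, 14 had a log2 fold change below 0 and 8 above 0, and the median over the 31 genes was -0.26, beside 0.0018 over all genes tested. At an unadjusted p under 0.05 there were 19 of the 31 genes (61.3%), against 24.2% of all genes tested. In 9 genes all 4 ISOGK-treated mice lay below all 4 vehicle-treated mice, and in 3 genes they lay above, shares of 29.0% and 9.68%. Over all genes tested, the groups were apart in this way in 7.36% (ISOGK below) and 7.92% (ISOGK above). With the study's thresholds, which add an absolute log2 fold change over 1, only Stard4 and Insig2 were called, 6.45% of the 31 genes beside 1.63% of all genes tested. The count of genes that fell depended on single vehicle-treated mice. It was 2 of 31 (6.45%, beside 1.29% of all genes) without vehicle mouse 2 and 4 of 31 (12.9%, beside 2.02%) without vehicle mouse 4, while 2 genes rose whichever mouse was left out.

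**Figure D1:**
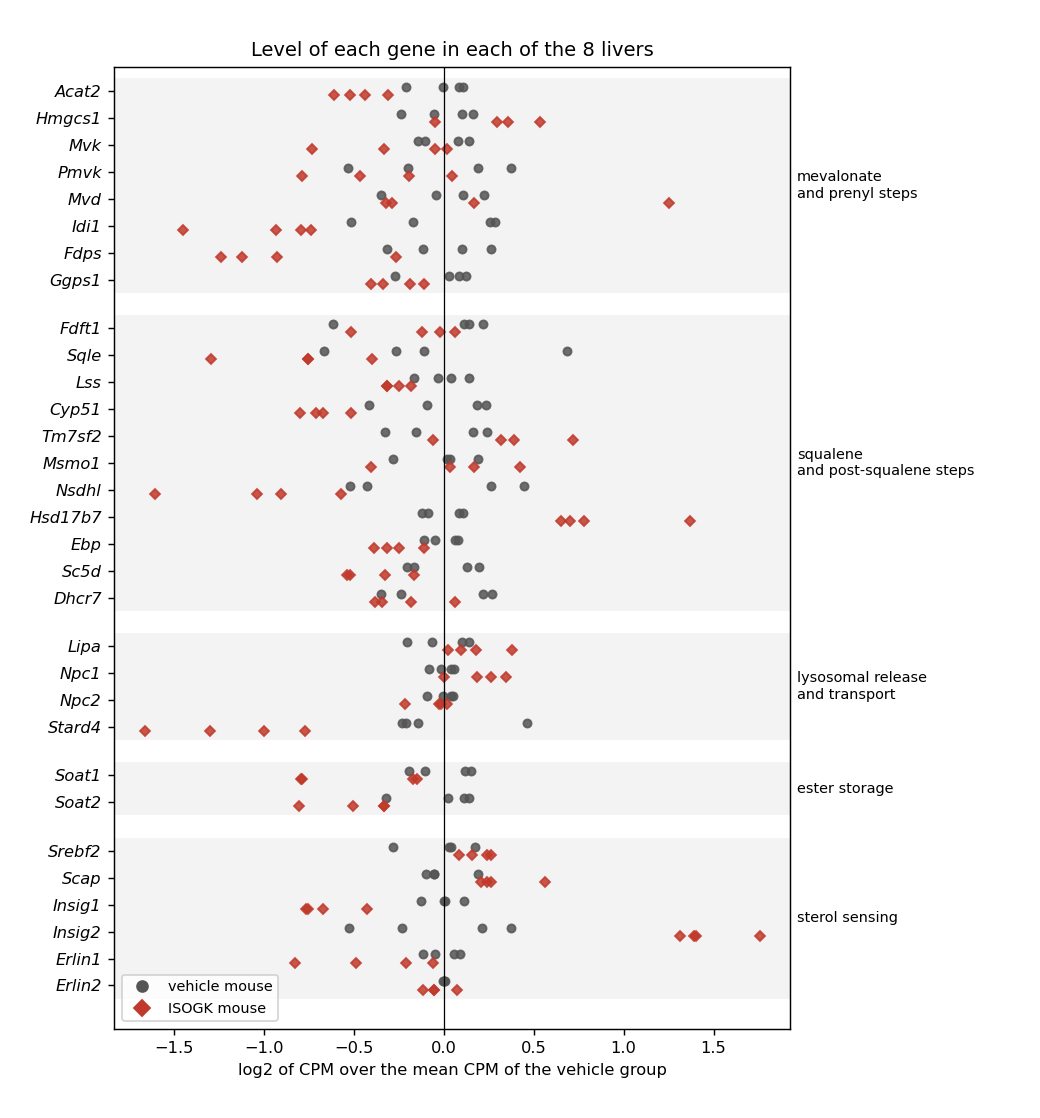
Level of each of the 31 genes in each of the 8 livers, as log2 of CPM over the mean CPM of the vehicle group (horizontal axis), with genes ordered by role (vertical axis). Circles are vehicle-treated and diamonds ISOGK-treated mice, and the ISOGK-treated mice lie wholly to the left in 9 genes and wholly to the right in 3.

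The 4 vehicle libraries held 19605286 to 24461854 counts and the 4 ISOGK libraries 17457106 to 21626399. Apoe itself was counted 3252 to 6489 times per library, so that the knockout could be taken from the labels alone. All 8 hepatocyte markers examined were present, 7 with a log2 fold change above 0 and 1 below (median 0.11). Their summed level, most of it from Alb, did not separate the groups. Of 12 macrophage and Kupffer cell markers, 11 had a log2 fold change below 0 and 2 of them fell, Gpnmb by 1.19 and Cd68 by 0.57 on the log2 scale. Their summed level was 1592 to 1973 CPM in the vehicle group and 1239 to 1553 CPM in the ISOGK group, without overlap. The largest part of this sum was Cd5l, at 577 to 667 CPM and 407 to 560 CPM. The 10 macrophage markers that did not pass the test include Cd5l (adjusted p = 0.0639, edgeR) and Csf1r (0.702). All 5 neutrophil markers tested had a log2 fold change above 0 (median 1.04), of which S100a9 rose by 1.31 (adjusted p = 0.0149, edgeR), and the summed levels overlapped at 10.3 to 15.1 and 12.1 to 28.8 CPM. All 5 cholangiocyte markers tested were also above 0 (median 0.61), of which Sox9 rose by 0.51 (adjusted p = 0.0494, edgeR), with summed levels of 27.8 to 35.02 and 28.3 to 69.4 CPM. No stellate cell, endothelial cell, lymphocyte, adipocyte or hepatocyte marker passed the test. The part of these markers in the results below was not tested. Vehicle mouse 4 stood apart by 10 skeletal muscle markers, which summed to 69.8 CPM there and to at most 0.58 CPM in the ISOGK group. Results in which vehicle mouse 4 was the highest of its group by far are also given without it. Vehicle mouse 1 stood apart from vehicle mice 2 to 4 in macrophage markers. Marco was at 170 CPM there against 18.6 to 57.6 CPM, and Adgre1 at 143 against 45.0 to 73.2 CPM. Timd4 was also higher, at 37.1 against 9.87 to 17.4 CPM, while Clec4f was lower, at 73.0 against 193 to 231 CPM. ISOGK mouse 4 stood apart in 2 other markers, with 5.34 CPM of Vsig4 against 75.05 to 94.4 CPM in ISOGK mice 1 to 3, and 16848 CPM of Fgb against 6707 to 7042 CPM. It was the lowest ISOGK-treated mouse for Idi1, Sqle, Nsdhl and Stard4, whose log2 fold changes without it were -0.82 (adjusted p = 0.0306, edgeR), -0.63 (0.261), -0.82 (0.0972) and -1.01 (0.0196). The labels number the libraries as separate samples of each group, and the p-values measure the spread between these samples.

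Promoter sequence was examined because SREBP2 acts at the promoters of most of these genes, together with the factors NF-Y and Sp1. Windows from RefSeq (build GRCm38.p6), reaching from 250 bases before to 50 bases after an annotated start, were given for 24 of the 31 genes and not for Erlin2, Fdft1, Fdps, Npc1, Soat2, Sqle and Stard4. The letters TCACNCCAC (N, any base), a strict core of the sterol regulatory element, were searched on both strands, as were CCAAT, the NF-Y box, and GGGCGG, the Sp1 box. None of these letter strings contains another, and each was counted by itself. The sterol core was found in 1 of the 24 genes, Hmgcs1, beside 1.44% of the 27025 genes in the table. CCAAT was found in 22 of 24 (91.7%) and GGGCGG in 22 of 24, beside 41.1% and 38.2% of all genes in the table. The shares set beside the members cover all genes with a window, expressed in liver or not. They were not computed for expressed genes alone, so the difference cannot be tied to this pathway. A match describes the letters and is no evidence of binding, and a window without the sterol core only lacks this spelling.

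Upstream stretches of 5 genes are printed 5′ to 3′ on the strand of the gene. They were chosen to show both genes of the retention pair (Insig1, which fell, and Insig2, which rose), a post-squalene enzyme that fell and one that rose (Cyp51 and Hsd17b7), and Hmgcs1, which held the sterol core and did not pass the test. Each is the part of the window before the start that lies in no annotated exon. Capitals mark CCAAT (as ATTGG on the other strand) and GGGCGG (as CCGCCC on the other strand), and in Hmgcs1 also the sterol core. Insig1 is at chr5:28071162-28071362 on the plus strand, Insig2 at chr1:121332590-121332839 on the minus strand, Cyp51 at chr5:4104747-4104947 on the minus strand, Hsd17b7 at chr1:169969242-169969408 on the minus strand and Hmgcs1 at chr13:119690101-119690350 on the plus strand.
Insig1: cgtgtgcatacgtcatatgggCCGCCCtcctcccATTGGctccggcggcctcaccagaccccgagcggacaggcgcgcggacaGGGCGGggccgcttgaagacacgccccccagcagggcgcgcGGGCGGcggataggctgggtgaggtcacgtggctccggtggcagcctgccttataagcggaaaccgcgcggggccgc
Insig2: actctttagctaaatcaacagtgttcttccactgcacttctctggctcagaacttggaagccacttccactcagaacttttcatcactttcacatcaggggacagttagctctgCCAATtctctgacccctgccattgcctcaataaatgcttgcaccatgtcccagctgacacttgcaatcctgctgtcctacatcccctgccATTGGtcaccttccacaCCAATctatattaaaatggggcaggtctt
Cyp51: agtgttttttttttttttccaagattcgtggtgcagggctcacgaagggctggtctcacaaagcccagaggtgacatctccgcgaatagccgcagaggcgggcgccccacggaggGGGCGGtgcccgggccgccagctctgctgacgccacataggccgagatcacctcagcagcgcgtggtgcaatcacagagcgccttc
Hsd17b7: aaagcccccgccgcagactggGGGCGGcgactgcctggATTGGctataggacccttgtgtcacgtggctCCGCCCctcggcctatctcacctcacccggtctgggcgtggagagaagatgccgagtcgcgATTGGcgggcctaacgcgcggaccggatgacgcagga
Hmgcs1: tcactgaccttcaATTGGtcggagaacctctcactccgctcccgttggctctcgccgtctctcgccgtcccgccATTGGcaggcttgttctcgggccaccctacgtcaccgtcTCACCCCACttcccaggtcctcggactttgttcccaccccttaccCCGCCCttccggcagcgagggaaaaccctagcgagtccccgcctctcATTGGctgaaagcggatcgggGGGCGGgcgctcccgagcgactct
The Insig2 stretch held 3 NF-Y boxes and no Sp1 box, while the Insig1 stretch held 1 NF-Y box and 3 Sp1 boxes. Hsd17b7 held 2 of each, Cyp51 held 1 Sp1 box, and Hmgcs1 held 3 NF-Y boxes, 2 Sp1 boxes and the sterol core. These counts leave out boxes in annotated exons. Over all 250 bases before the start, Cyp51 also held 1 NF-Y box, at -29, and Hsd17b7 held 3 of each. The printed stretches alone therefore do not show that Cyp51 lacks an NF-Y box. The Insig2 stretch is upstream of the first of 3 starts that RefSeq gives for the gene, and counts per gene do not say which start was used.

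Among the mevalonate and prenyl steps, 3 of 8 genes fell and none rose, with a median log2 fold change of -0.29. Acat2, a thiolase that joins acetyl-CoA units in the cytosol, had 20.8, 25.5, 24.03 and 25.95 CPM in vehicle mice 1 to 4 and 17.8, 15.8, 16.7 and 19.4 CPM in ISOGK mice 1 to 4. Every ISOGK-treated mouse was below every vehicle-treated mouse, and the log2 fold change was -0.47 (SE 0.11, adjusted p = 0.0239, edgeR). Acat2 shares 97.7% of letters with Acat3 over 1477 bases of its transcript, and reads of the pair may have been divided between them. Acat3, at 181 to 245 CPM in the vehicle group and 116 to 153 CPM in the ISOGK group, fell by 0.67 (adjusted p = 0.00741, edgeR). Tcp1, which shares 98.7% of letters with Acat2 over 445 bases, had a log2 fold change of 0.20 (adjusted p = 0.239, edgeR). The fall of Acat2 alone is therefore uncertain. Its adjusted p was also 0.0615 to 0.0864 when vehicle mouse 2, 3 or 4 or ISOGK mouse 2 was left out.

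Hmgcs1 makes HMG-CoA in the cytosol and is among the best known targets of SREBP2. It had 30.2, 35.0, 26.6 and 33.5 CPM in the vehicle group and 30.3, 45.3, 38.5 and 40.1 CPM in the ISOGK group. All but ISOGK mouse 1 of the ISOGK-treated mice were above all vehicle-treated mice, and the log2 fold change of 0.30 (95% interval 0.018 to 0.58) did not pass the test (adjusted p = 0.181, edgeR). Its sign was thus opposite to that of Acat2, Idi1 and Fdps.

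The 3 enzymes that turn mevalonate into isopentenyl pyrophosphate did not pass the test. Mvk, mevalonate kinase, had a log2 fold change of -0.24 and Pmvk, phosphomevalonate kinase, one of -0.32, with overlapping groups. Mvd, the decarboxylase, had only 29 to 87 counts per library. Its log2 fold change of 0.36 rested on ISOGK mouse 4 at 4.56 CPM and was -0.13 without that mouse.

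Idi1 and Fdps, which follow, had the largest falls of these steps. Idi1 converts isopentenyl pyrophosphate to its isomer. Its level was 16.3, 28.4, 20.7 and 27.8 CPM in the vehicle group and 12.2, 13.99, 13.5 and 8.54 CPM in the ISOGK group. The groups were apart, with means of 23.3 ± 5.84 and 12.05 ± 2.45 CPM (SD, n = 4 each) and a log2 fold change of -0.95 (SE 0.20, adjusted p = 0.0164, edgeR). Without vehicle mouse 2 it was -0.84 with an adjusted p of 0.0576 by edgeR. Fdps builds farnesyl pyrophosphate, the branch point to sterols, prenylated proteins and dolichol. It had 30.0, 44.7, 34.5 and 40.1 CPM in the vehicle group and 15.8, 31.03, 17.1 and 19.6 CPM in the ISOGK group. ISOGK mouse 2 reached above vehicle mouse 1, the other 3 ISOGK-treated mice were below all vehicle-treated mice, and the log2 fold change was -0.84 (SE 0.21, adjusted p = 0.0393, edgeR). The adjusted p rose to 0.0643 to 0.111 when any 1 of 6 mice was left out, those other than vehicle mouse 1 and ISOGK mouse 2. Fdps also has 4 copies elsewhere in the genome, with 96.1% to 98.9% of letters in common over 605 to 1066 bases. It shares 1124 exonic bases, 26.7% of its exons, with Gm43738 on the same strand. Idi1 has copies in Gm13502 (100% of letters over 684 bases) and Gm35570 (97.7% over 681 bases). How reads were divided among these genes is not given in the sources used here. Ggps1, which makes the longer geranylgeranyl pyrophosphate, had a log2 fold change of -0.26 (adjusted p = 0.275, edgeR).

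Of the 11 genes of the squalene and post-squalene steps, 2 fell and 1 rose. The steps from farnesyl pyrophosphate to lanosterol did not pass the test in any gene. Fdft1, squalene synthase, had a log2 fold change of -0.14, with 18.8 CPM in vehicle mouse 1 beside 31.1 to 33.5 CPM in vehicle mice 2 to 4. It shares 774 exonic bases, 18.3% of its exons, with Ctsb on the opposite strand, which had 11610 to 22688 counts per library against 356 to 861 for Fdft1. Whether counting used strand is not given in the sources used here, and the part of Ctsb, which fell by 0.44 (adjusted p = 0.0118, edgeR), in the Fdft1 counts was not tested. Sqle, the monooxygenase that is a second control point of the pathway, had 6.17, 8.15, 9.07 and 15.7 CPM in the vehicle group and 5.79, 5.81, 7.41 and 3.98 CPM in the ISOGK group. ISOGK mouse 4 was the lowest and vehicle mouse 4 the highest, and the log2 fold change of -0.77 had a wide error (SE 0.28, adjusted p = 0.128, edgeR). Without vehicle mouse 4 it was -0.45 (adjusted p = 0.24, edgeR). Lss, which closes the sterol rings, was lower in every ISOGK-treated mouse than in any vehicle-treated mouse, at 8.92 to 9.80 against 9.89 to 12.2 CPM, with a log2 fold change of -0.26 (adjusted p = 0.178, edgeR).

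Past lanosterol, Cyp51 and Nsdhl fell and Hsd17b7 rose. Cyp51, the lanosterol demethylase, had 28.8, 43.6, 35.9 and 45.1 CPM in the vehicle group and 22.02, 26.9, 24.1 and 23.4 CPM in the ISOGK group. The groups were apart and the level fell by 0.67 on the log2 scale (SE 0.14, adjusted p = 0.0128, edgeR). Without vehicle mouse 2 the adjusted p was 0.0524, and without vehicle mouse 4 it was 0.0399. Tm7sf2, a sterol reductase of the next step, had a log2 fold change of 0.37 (adjusted p = 0.204, edgeR), and 12.1% of its exonic bases are shared with Vps51 on the same strand.

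The removal of the 4-methyl groups is done by Msmo1, Nsdhl and Hsd17b7, and their values differed. Msmo1, the methyl oxidase, had a log2 fold change of 0.09 (adjusted p = 0.795, edgeR), and its sign turned with scaling by library size alone. Nsdhl, the decarboxylating dehydrogenase, had 11.4, 18.4, 10.7 and 20.8 CPM in the vehicle group and 8.19, 10.3, 7.46 and 5.03 CPM in the ISOGK group. The groups were apart, and the log2 fold change of -0.98 (SE 0.26, adjusted p = 0.0492, edgeR) lay at the edge of the threshold. It stayed below 0 in all 16 alternatives, from -1.15 to -0.80, but its adjusted p reached or passed 0.05 in 11 of them, with a highest value of 0.132. Without vehicle mouse 4, its highest value, the log2 fold change was -0.80 (adjusted p = 0.0996, edgeR). Hsd17b7, the ketoreductase that completes the removal, had 24.4, 23.9, 27.8 and 27.5 CPM in the vehicle group and 40.6, 66.8, 44.4 and 42.1 CPM in the ISOGK group. All ISOGK-treated mice were above all vehicle-treated mice, with means of 48.5 ± 12.3 and 25.9 ± 2.06 CPM (SD, n = 4 each), and the level rose by 0.90 on the log2 scale (SE 0.15, adjusted p = 0.00503, edgeR). Without ISOGK mouse 2, the highest, it still rose by 0.71 (adjusted p = 0.00386, edgeR).

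The last enzymes, Ebp (sterol isomerase), Sc5d (lathosterol oxidase) and Dhcr7 (the final reductase), had log2 fold changes of -0.26, -0.38 and -0.20. Ebp was 121 to 138 CPM in the vehicle group and 100.1 to 121 CPM in the ISOGK group, which lay just apart (adjusted p = 0.107, edgeR). Sc5d was 147 to 195 CPM and 117 to 151 CPM, with overlap (adjusted p = 0.0807, edgeR). Neither passed the test. Sc5d did with DESeq2 (adjusted p = 0.0427), and both did with scaling by library size alone, under which the median of all genes was shifted by -0.13.

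**Figure D2:**
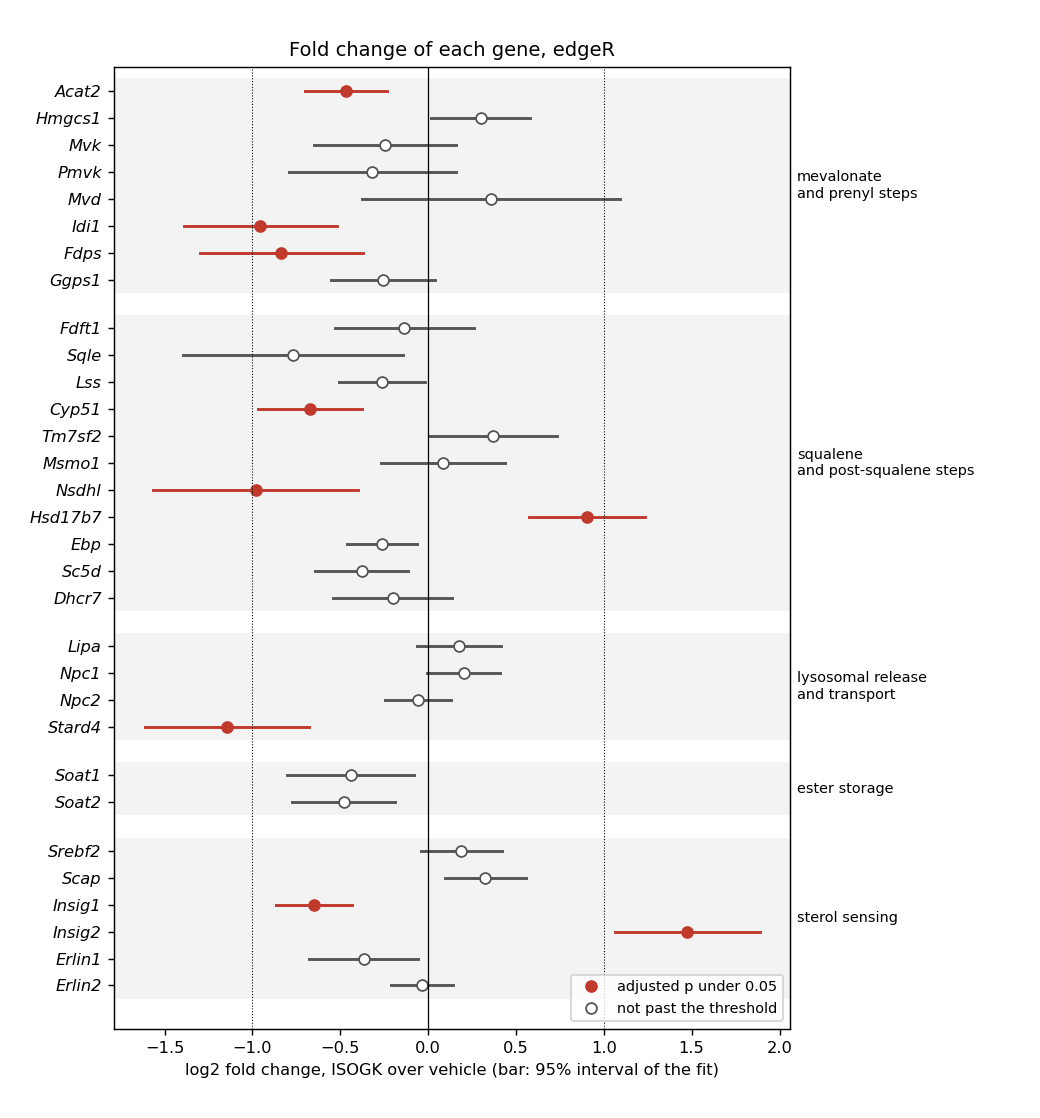
Log2 fold change of each gene, ISOGK over vehicle, from edgeR (horizontal axis), ordered by role, with bars for the 95% interval of the fit (n = 4 per group). Filled points have an adjusted p under 0.05 and dotted lines mark a log2 fold change of 1 in either direction. Of the filled points, 7 lie left of 0 and 2, Hsd17b7 at 0.90 and Insig2 at 1.48, lie right.

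Of the 4 genes of lysosomal release and transport, 1 fell and none rose. Lipa, the acid lipase that frees cholesterol from esters taken up with lipoproteins, had 149 to 189 CPM in the vehicle group and 175 to 223 CPM in the ISOGK group, with a log2 fold change of 0.17 (adjusted p = 0.361, edgeR). Npc1 and Npc2, which pass the freed cholesterol out of the lysosome, had log2 fold changes of 0.20 (95% interval -0.0042 to 0.41) and -0.06 (95% interval -0.24 to 0.13). None of these 3 passed the test. Stard4, a soluble carrier that moves sterol between membranes and feeds it to the endoplasmic reticulum, had the largest fall of all 31 genes. It had 36.5, 36.0, 58.2 and 38.2 CPM in the vehicle group and 24.8, 17.2, 21.1 and 13.4 CPM in the ISOGK group. All ISOGK-treated mice were below all vehicle-treated mice, and the level fell by 1.14 on the log2 scale (SE 0.21, adjusted p = 0.011, edgeR), to 0.453 of the vehicle level. Vehicle mouse 3 was high within its group, and without it the fall was 0.95 (adjusted p = 0.0158, edgeR), which is under the study's fold threshold.

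The genes of ester storage are Soat1 and Soat2, acyltransferases that esterify cholesterol. Soat2 is the form of hepatocytes, and Soat1 is the form of macrophages and many other cells. Soat2 had 17.6, 23.8, 22.4 and 24.2 CPM in the vehicle group and 15.5, 17.5, 12.6 and 17.5 CPM in the ISOGK group. The groups were just apart, and the log2 fold change of -0.48 (SE 0.14) missed the threshold with an adjusted p of 0.0508 by edgeR. It was past the threshold in 7 of 16 alternatives, among them DESeq2 (adjusted p = 0.0183). Soat1 had 14.6 to 18.5 CPM and 9.61 to 14.98 CPM in the respective groups, with a log2 fold change of -0.44 (adjusted p = 0.13, edgeR). Of the 12 macrophage markers, 2 fell, and their part in this value was not tested. The ratio of Soat2 to Soat1 lay between 0.954 and 1.63 with vehicle and between 0.842 and 1.82 with ISOGK. These overlapped, while the summed level of both genes was apart, at 36.1 to 40.4 CPM and 27.1 to 30.3 CPM.

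Of the 6 genes of sterol sensing, 1 fell and 1 rose. Srebf2, which encodes SREBP2, had 29.8, 23.8, 29.6 and 32.8 CPM in the vehicle group and 30.8, 34.8, 34.2 and 32.4 CPM in the ISOGK group. The groups overlapped, and the log2 fold change was 0.19 (95% interval -0.043 to 0.42, adjusted p = 0.303, edgeR). Scap, its escort to the Golgi, had 81.9, 79.4, 81.7 and 96.8 CPM in the vehicle group and 100.5, 126, 102 and 97.97 CPM in the ISOGK group. The groups were apart by little, with ISOGK above, and the log2 fold change of 0.33 did not pass the test (adjusted p = 0.0843, edgeR). Without vehicle mouse 4 it was 0.39 (adjusted p = 0.0715, edgeR).

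Insig1 and Insig2 encode the retention proteins of SCAP. Insig1 is itself a target of SREBP and rises when the factor is active, while Insig2 is not, and its liver transcript is known to rise in fasting and to be lowered by insulin. Insig1 had 53.4, 58.5, 62.9 and 58.4 CPM in the vehicle group and 36.6, 34.3, 43.4 and 34.5 CPM in the ISOGK group. The groups were well apart, and the level fell by 0.65 on the log2 scale (SE 0.099, adjusted p = 0.00308, edgeR). Insig2 had 235, 209.7, 126 and 154 CPM in the vehicle group and 449.5, 612, 476 and 478 CPM in the ISOGK group. Each ISOGK-treated mouse was above every vehicle-treated mouse, with means of 504 ± 73.1 and 181 ± 49.9 CPM (SD, n = 4 each). The level rose by 1.48 on the log2 scale (SE 0.19, 95% interval 1.07 to 1.89, adjusted p = 0.00178, edgeR), which is 2.78 times the vehicle level. By size, Insig2 ranked 88th from the top among the 12307 genes tested, and Stard4 ranked 92nd from the bottom.

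Within each liver, the counts of Insig2 over those of Insig1 gave ratios of 4.39, 3.58, 2.00 and 2.64 in vehicle mice 1 to 4 and of 12.3, 17.8, 10.97 and 13.9 in ISOGK mice 1 to 4. Every ISOGK-treated mouse had a higher ratio than every vehicle-treated mouse, which follows from the separation of both genes in opposite directions. Being taken within a library, the ratio does not depend on scaling. On the log2 scale the ratio was 1.595 ± 0.498 (vehicle) and 3.755 ± 0.301 (ISOGK; SD, n = 4 each). Over all 16 alternatives, the log2 fold change of Insig1 ranged from -0.78 to -0.61 and that of Insig2 from 1.34 to 1.63, and both passed the test in each.

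Erlin1 and Erlin2 encode membrane proteins of the endoplasmic reticulum that bind the SREBP-SCAP-INSIG complex and help to retain it. Erlin1 had 40.7, 45.8, 46.9 and 42.6 CPM in the vehicle group and 42.3, 24.8, 38.1 and 31.4 CPM in the ISOGK group. ISOGK mouse 1 lay among the vehicle-treated mice, and the log2 fold change of -0.37 did not pass the test (adjusted p = 0.141, edgeR). Erlin2 had the smallest spread of the 31 genes within the vehicle group, at 31.9 to 32.1 CPM, and 29.5 to 33.7 CPM in the ISOGK group, with a log2 fold change of -0.03 (95% interval -0.21 to 0.14).

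**Figure D3:**
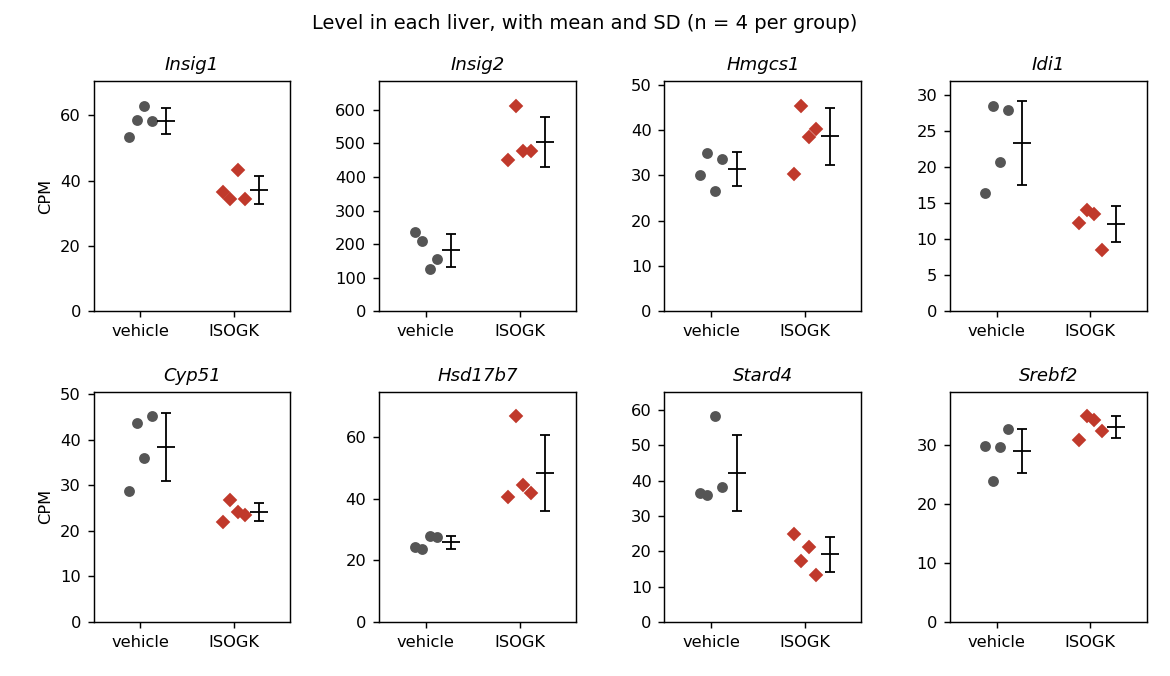
CPM (vertical axes, from 0) of 8 of the genes in each liver, with 4 vehicle-treated (circles) and 4 ISOGK-treated (diamonds) mice per panel, and the mean and SD of each group beside the points. Insig1, Idi1, Cyp51 and Stard4 are lower and Insig2 and Hsd17b7 higher in all ISOGK-treated mice, while the groups overlap in Hmgcs1 and Srebf2.

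Levels between genes were compared per kilobase of merged exons (GENCODE annotation of GRCm38), a length that counts every annotated exon and so understates genes with long minor transcripts. In the vehicle group, Ebp was the highest at 56.7 ± 3.54 CPM per kilobase (SD, n = 4), followed by Insig2 at 52.2 ± 14.4, which did not differ from it beyond their spread. Sc5d at 34.9 ± 4.90, Lipa at 25.3 ± 2.72 and Insig1 at 18.9 ± 1.25 CPM per kilobase came next. The lowest were Lss at 1.03 ± 0.0913 and Mvd at 1.03 ± 0.169 CPM per kilobase. In the ISOGK group Insig2 was the highest of the 31 genes at 145 CPM per kilobase, ahead of Ebp at 47.2, and Insig1 went from the 5th to the 8th place. Hsd17b7 went from the 22nd to the 10th place, and Stard4 from the 16th to the 23rd. Of the 4 genes that passed the test in all 16 alternatives (Insig1, Insig2, Hsd17b7 and Stard4), the members of the retention pair were thus among the most abundant transcripts of the pathway.

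**Figure D4:**
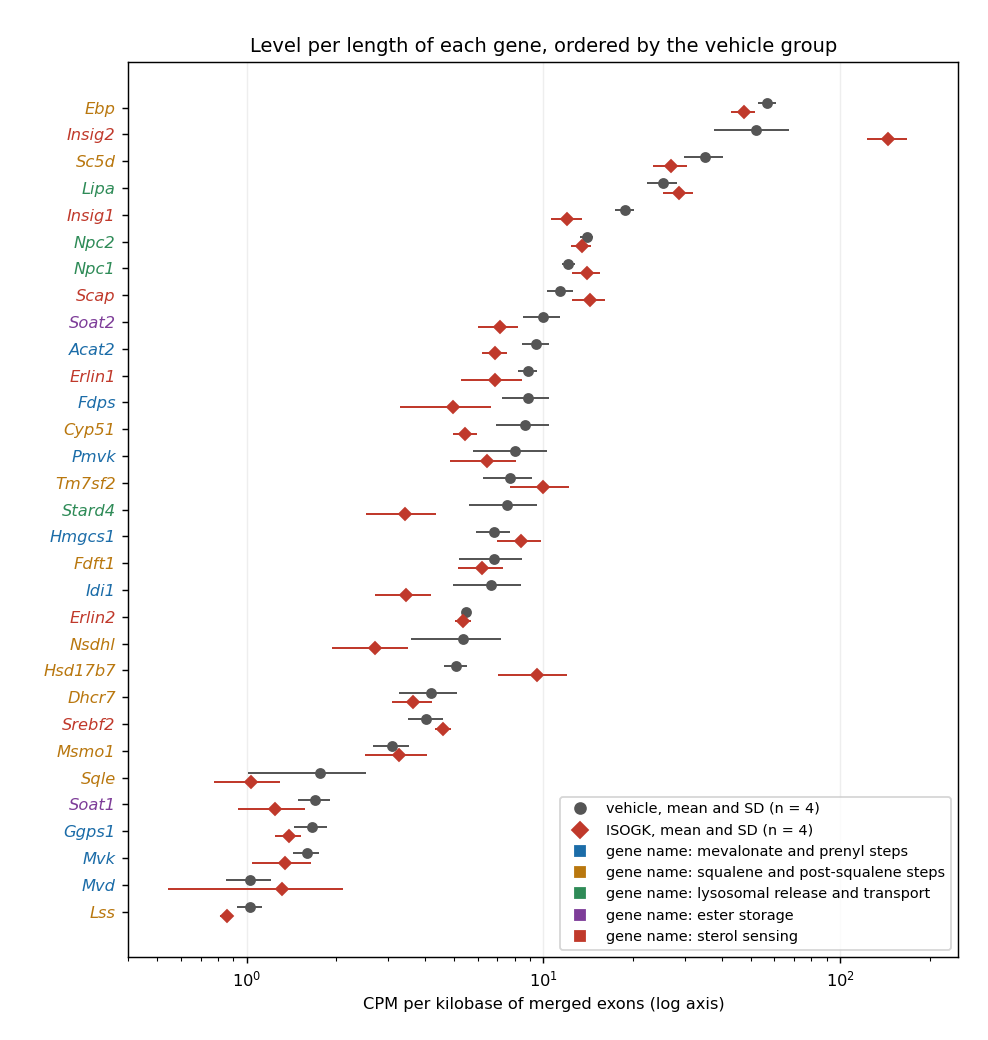
Mean level of each gene in CPM per kilobase of merged exons (horizontal log axis), ordered by the vehicle group, with bars for the SD (n = 4 per group) and gene names coloured by role. Insig2 is at 52.2 for vehicle (circle) and 145 for ISOGK (diamond), and most enzymes of the mevalonate and post-squalene steps lie below 10.

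Genes around the pathway were counted by the same test. Of 22 genes that carry SREBP to the Golgi, cut it or degrade sterol-regulated proteins of the endoplasmic reticulum, none fell and 2 rose, with a median log2 fold change of 0.07. These were Ufd1, at 17.8 to 20.0 CPM in the vehicle group and 24.8 to 28.9 CPM in the ISOGK group (log2 fold change 0.47, adjusted p = 0.0101, edgeR), and Nploc4, with 0.35 (adjusted p = 0.0242). Their products are known as partners of the ATPase VCP in pulling ubiquitinated proteins, INSIG1 among them, out of the membrane. The proteases of SREBP, encoded by Mbtps1 and Mbtps2, did not pass the test, with log2 fold changes of -0.22 and 0.08.

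Of 7 further genes known as SREBP2 targets, Mmab, a cobalamin adenosyltransferase that shares its promoter region with Mvk, fell by 0.78 (adjusted p = 0.0057, edgeR). The median of these 7 was -0.61, the value of Acss2 (adjusted p = 0.148, edgeR), with 5 genes below 0 and 2 above. Only Mmab passed the test, and none rose. The lowest values, those of Aacs (-1.62, SE 0.53) and Lpin1 (-1.11, SE 0.71), had wide errors. Of 8 accessory proteins of sterol synthesis, Cyb5b, an outer mitochondrial cytochrome b5, fell from 233 to 288 CPM in the vehicle group to 145 to 171 CPM in the ISOGK group (log2 fold change -0.73, adjusted p = 0.00178, edgeR). None of the 8 rose.

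Isoprenoid use, which draws on the products of Fdps and Ggps1, was mixed over 13 genes. Pggt1b, the subunit particular to the enzyme that attaches geranylgeranyl groups, fell by 0.80 (adjusted p = 0.0164, edgeR). Fnta, the subunit that this enzyme shares with farnesyltransferase, rose by 0.45 (adjusted p = 0.0328), and Rabggtb, a subunit of the Rab prenyltransferase, rose by 0.45 (adjusted p = 0.0135). Of 8 other genes of sterol transport and ester hydrolysis, only Nceh1, a neutral cholesterol ester hydrolase, passed the test, with 29.8 to 36.8 CPM in the vehicle group and 37.6 to 45.3 CPM in the ISOGK group (log2 fold change 0.39, adjusted p = 0.0347, edgeR).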

How the data were processed

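Liver RNA of 8 male Apoe-/- mice, 4 given vehicle and 4 given ISOGK, was sequenced, with 1 library per labelled sample. The authors aligned single-end Illumina reads with HISAT2 and computed raw counts of genes with StringTie, and the deposited table holds these counts per gene symbol without normalization. Columns headed DMSO, the solvent, were read as vehicle. The submitters' processing notes name mm10, and the use of strand is not given in the sources used here.

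The default filterByExpr (10 as the minimum count, 15 as the minimum total) kept 12307 of 16540 symbols. Counts were scaled with TMM factors and tested with the robust quasi-likelihood test of edgeR 4.0.16 in R 4.3.3, with Benjamini-Hochberg adjustment over all genes tested. The study names DESeq2 for normalization and no test. Standard errors and 95% intervals came from the same fit. Alternatives were DESeq2 1.42.0, voom in limma 3.58.1, edgeR with the size factors of DESeq2, with unscaled library sizes, with a filter of 1 count in all or of 10 counts in every library, or fitted without robustness, a block for the replicate number, and each mouse left out. The scripts were tested on simulated counts. The common biological coefficient of variation was 0.164, and totals of 17457106 to 24461854 counts per library set the counting error.

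Members, gene lists and tests were chosen with earlier results of these data known. All 31 genes were named by role, and from each further pathway list up to 3 genes with the smallest adjusted p under 0.05. Further genes were named after their values were seen. These were markers (Gpnmb, Cd68, Cd5l, Csf1r, Marco, Adgre1, Timd4, Clec4f, Vsig4, Alb, Fgb, S100a9, Sox9) and the genes that share sequence with members. Mbtps1, Mbtps2, Acss2, Aacs and Lpin1 were also named in this way. Coordinates and exon lengths are those of GENCODE M21 (GRCm38), in which all 31 symbols were found. No 2 libraries of a group agreed within counting noise (chi-square per gene 18.1 to 99.6, with about 1 expected).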

Additional observations from a re-analysis of the deposited data

Results flagged for a closer look

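Of the 62 sets of 4 values (31 genes in 2 groups), 5 held a mouse far from the other 3 by Dixon's test at 95%, where chance gives about 3.1. Fdft1 was at 18.82 CPM in vehicle mouse 1, with the others at 31.09 to 33.53 CPM. Hsd17b7 was at 66.82 CPM in ISOGK mouse 2, with the others at 40.61 to 44.44 CPM. Stard4 was at 58.18 CPM in vehicle mouse 3, with the others at 35.96 to 38.19 CPM. Scap was at 96.79 CPM in vehicle mouse 4, with the others at 79.39 to 81.94 CPM, and at 125.5 CPM in ISOGK mouse 2, with the others at 97.97 to 101.9 CPM. Vehicle mouse 1 was the lowest of its group in 16 of the 31 genes, and ISOGK mouse 2 was the highest of its group in 18. ISOGK mouse 4 was the lowest of its group in 11.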

How the results depend on the processing

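Over 31 genes and 16 alternatives, 459 of 496 values kept their direction and their side of the threshold, 23 lost the call, 11 gained it and 3 turned sign. Of the 9 genes called, Hsd17b7, Stard4, Insig1 and Insig2 were called in all 16. Nsdhl lost its call in 11, Fdps in 6, Acat2 in 4, and Idi1 and Cyp51 in 1, without vehicle mouse 2. The count of genes that fell was 7, became 9 with DESeq2, 6 with limma-voom and 10 with library size alone, and ranged from 2 to 7 with single mice left out. The count of genes that rose was 2 throughout. The count past both thresholds was 2, became 4 with library size alone, and ranged from 2 to 4 with single mice left out (4 without ISOGK mouse 2). The median of the 31 genes was -0.26, and -0.38 with library size alone, under which the median of all genes was -0.13 and the difference between them -0.25. The signs that turned were those of Mvd without ISOGK mouse 4 (-0.13, and up to 0.53 without others) and of Msmo1 with library size alone (-0.035) and without ISOGK mouse 2 (-0.047, and up to 0.22 without others). Fits without 1 mouse have fewer samples, and the cause of each lost call was not tested.

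The sources used here do not pair same-numbered mice. The correlations of their deviations from the group means were 0.013, -0.014, 0.075 and 0.085, and 1 of 4 was highest for its own number. With so few mice, these values show no pairing but cannot exclude one. With the replicate block, 8 genes fell and 2 rose, 2 passed both thresholds and the median was -0.26. Nsdhl lost its call (adjusted p = 0.0797, edgeR), while Soat1 (0.0497) and Soat2 (0.0462) gained one. Depth limits Mvd (29 to 87 counts per library) and Mvk (49 to 119) most.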
